A study of Saccharomyces cerevisiae with 16 samples.

Results

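Of the 16 arrays of the series, 6 had a low level of the hypoxic gene TIR1 and 10 had a high one. The 6 arrays, labelled WT replicate 1, MA1 replicate 1, MA3 replicate 1, MA5 replicate 1, MA6 replicate 1 and MA7 replicate 2, were chosen by their TIR1 value in the deposited table, on a log2 scale: the threshold lies between 10.87, the highest value of the 6 (MA7 replicate 2), and 12.35, the lowest of the 10 (MA3 replicate 2). Because a measured value chose the arrays, every comparison of the 6 with the 10 below is a description, and nothing in it rests on a test.

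The study grew Saccharomyces cerevisiae strains at 30 °C to an optical density of 0.5 and hybridized their RNA to Affymetrix Yeast Genome 2.0 arrays. There were 8 strain labels with 2 arrays each. All strains share the alleles gal2, trp1, leu2, leu2-3, ura3-52, pep4-3, prb1-1122 and prc467. WT carries a CBP tag at CCT6 (a subunit of the chaperonin CCT, the ring complex that folds actin and tubulin) with the marker KanMX4. The mutants MA1, MA2, MA3, MA5, MA7 and MA8 carry that tag with the marker URA3, together with D96E in TCP1, D90E in CCT2, D91E in CCT3, D117E in CCT5, D96E in CCT7 and D98E in CCT8, each marked with KANMX4. MA6 carries D89E in the tagged CCT6 itself, marked with KANMX4. Whether the 2 arrays of a label come from separate cultures is not stated, nor is any change of oxygen.

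The labels are uncertain. URA3 opposed the label on 2 of the 6 arrays (MA5 replicate 1 at 8.12 and MA6 replicate 1 at 11.70) and on 4 of the 10, so arrays are named here by label only to identify them. The 6 arrays carry 6 different labels, and the other array of each of those labels lies among the 10. By their values over all genes the 6 fall into 3 couples of most alike arrays, described further on: WT replicate 1 with MA5 replicate 1 (the WT/MA5 couple), MA1 replicate 1 with MA6 replicate 1 (the MA1/MA6 couple) and MA3 replicate 1 with MA7 replicate 2 (the MA3/MA7 couple). Where values of a couple are given, they stand in that order. The 6 do not stand apart by the medians of the tested genes (10.47 to 10.50 on the 6 and 10.47 to 10.49 on the 10) or by the median of the 1747 probe sets listed for no single S. cerevisiae gene (4.33 to 4.44 and 4.35 to 4.41). The difference between 3' and 5' control probe sets, a sign of RNA integrity, was 0.41 to 0.45 for ACT1 on the 6 and 0.38 to 0.48 on the 10. For SPT15 it was 1.37 and 1.21 on the WT/MA5 couple, below the range of 1.47 to 1.71 on the 10, and 1.54 to 1.65 on the other 4. For WBP1 it was 1.36 on MA5 replicate 1, below 1.55 to 1.70 on the 10. For RIP1 4 of the 6 arrays lay below the range of 0.28 to 0.42 on the 10 (from 0.25 on WT replicate 1 to 0.28 on MA1 replicate 1) and MA7 replicate 2 lay above it at 0.49. The 25S ribosomal RNA probe set was outside the range of 8.52 to 10.95 on 5 of the 6, at 11.27 on WT replicate 1 and at 7.22 to 8.50 on all others but MA3 replicate 1 (9.88). Signs of RNA quality thus differed from the 10 on arrays of every couple, and their part in the results was not tested. The median gene of chromosome X was 0.72 and 0.77 above its 16-array median (log2) on the MA3/MA7 couple, and -0.03 to 0.02 on the other arrays, so genes of that chromosome are marked as such below.

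In yeast, oxygen is sensed largely through the products that need it, heme and sterols. With heme present, Hap1 activates respiratory genes and the repressor Rox1 keeps hypoxic genes off. When sterol runs low, Upc2 activates sterol synthesis and uptake genes and the anaerobic cell wall genes. The DAN and TIR genes encode serine- and threonine-rich mannoproteins that replace the aerobic wall proteins during anaerobic growth, and several enzymes and carriers have one isoform for air and another for low oxygen.

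Of the 15 genes with the widest gap between the 6 arrays and the 10, all lower on the 6, 7 other than TIR1 were in the lists of hypoxic wall, isoform, regulator and sterol uptake genes. Of the 5449 genes, these lists held 6 DAN and TIR, 13 PAU, 6 isoform, 15 regulator and 8 sterol uptake genes. The lists were chosen with earlier results of these data known. Of 5449 genes, all 6 values lay below all 10 for 81 (1.49%) and above all 10 for 40 (0.734%). The differences of the medians were larger among the 81: 17 of them were lower by at least 1 on the log2 scale, and the largest was 3.13. None of the 40 reached 1, and the largest was 0.78. The same count was 0 of the 1747 probe sets listed for no single S. cerevisiae gene (0% below and 0% above) and, among 3683 probe sets absent from the annotation used, 1 below (0.0272%) and 0 above (0%). The 1747 were mostly dim, with array medians of 4.33 to 4.44, so their count is no control for that of the 5449 genes. Ranked by the gap between the lowest of the 10 and the highest of the 6, the first 8 genes were TIR1, TIR3, DAN1, PBI1, HES1, ANB1, TIR4 and AUS1, with gaps from 1.49 down to 0.55. TIR1 heads that order by construction, since it chose the arrays.

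**Figure D1:**
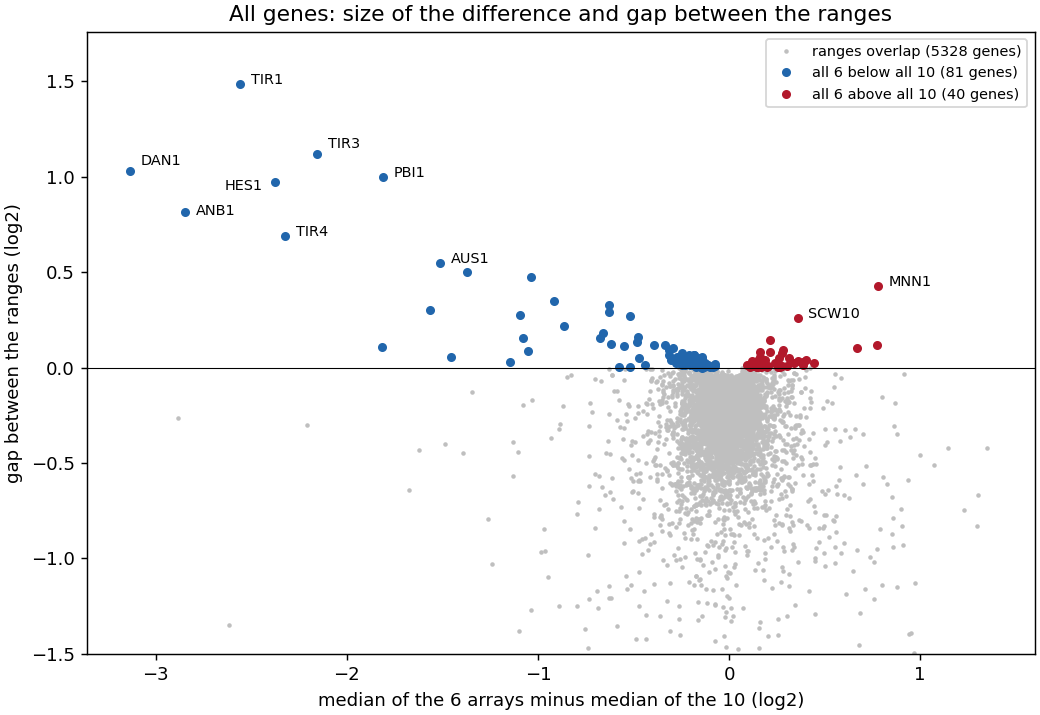
Each point is 1 of 5449 genes. The x axis is the median of the 6 arrays minus the median of the 10 (log2), and the y axis is the gap between the ranges of the 6 and the 10 (log2), above 0 where they do not overlap. The 81 genes lower on all 6 reach a median difference of -3.13 (DAN1), whereas the 40 higher ones end at 0.78 (MNN1). The axis ends at -1.5 and leaves out 41 genes with a wider overlap.

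The DAN and TIR mannoproteins were the list with the lowest median difference. All 6 genes were measured. Leaving out TIR1, which made the split, 3 of 5 had no overlap with lower values on the 6, against 1.49% of all genes. The median difference of these 5 was -2.15, against -0.02 over all genes. TIR1, the cold- and anaerobiosis-induced wall protein, had values of 9.31 and 9.21 on the WT/MA5 couple, 10.35 and 10.37 on the MA1/MA6 couple and 10.29 and 10.87 on the MA3/MA7 couple. On the 10 arrays its lowest, median and highest values were 12.35, 12.88 and 13.27, so the medians differed 5.88-fold. The 6 values lay at more than one level, with the WT/MA5 couple lowest. In RNA from whole cultures, fewer cells that express a gene and less of its RNA in each cell cannot be told apart.

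DAN1, a mannoprotein transcribed in anaerobic cells, was 6.14 and 6.33 on the WT/MA5 couple, 8.30 and 8.51 on the MA1/MA6 couple, and 9.27 and 9.95 on the MA3/MA7 couple. The 10 arrays held it between 10.98 and 11.96 with a median of 11.53, a difference of 8.77-fold between the medians. The 6 arrays thus formed 3 steps of 2 arrays each, all below the 10. DAN1 lies on chromosome X, whose median stood high on the arrays of the highest of these steps.

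TIR3 and TIR4, the other mannoproteins of this kind, were low at a more even level. TIR3 lay from 9.40 to 10.20 on the 6, against 11.32 to 12.34 on the 10, a 4.45-fold difference of the medians. TIR4 lay from 9.00 to 9.98 on the 6, against 10.67 to 12.00 on the 10, a 5.01-fold difference. In both genes MA7 replicate 2 was the highest of the 6 and MA3 replicate 2 the lowest of the 10.

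The remaining members overlapped. TIR2, whose product is a further wall mannoprotein, had 8.93, 9.32 and 9.64 as its lowest, median and highest value on the 6 and 9.37, 9.81 and 9.99 on the 10. DAN4 had 8.50, 9.07 and 9.51 on the 6 and 8.63, 9.13 and 9.38 on the 10. The WT/MA5 couple lay below all of the 10, and the MA3/MA7 couple, on which its chromosome X stood high, lay above them. In the gene order of chromosome XV, TIR2 lies between TIR4 and AUS1. The medians of its neighbours differed by -2.32 and -1.51 (log2) and its own by -0.49.

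**Figure D2:**
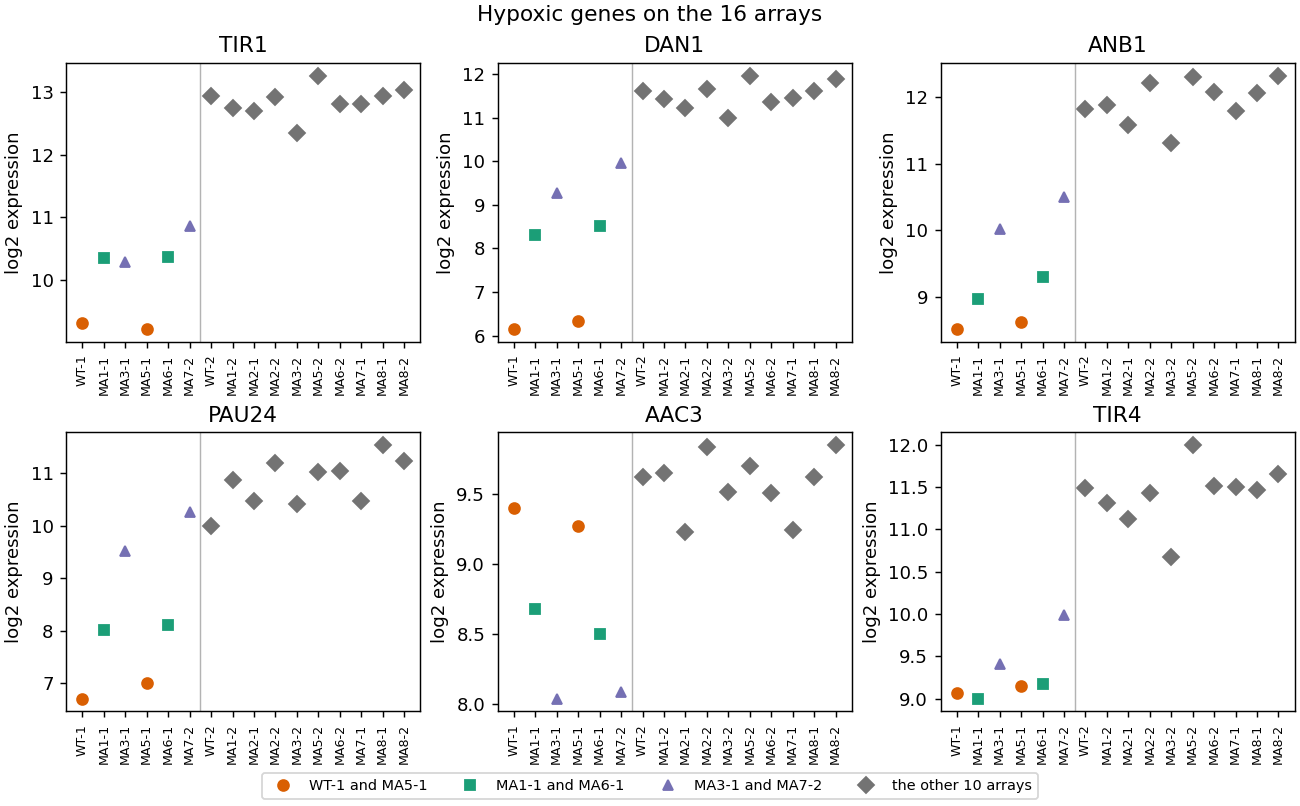
Log2 expression of 6 hypoxic genes on each array. The 6 arrays with low TIR1 are left of the line, with 1 colour and shape for each couple of most alike arrays, and the other 10 are grey. TIR1, DAN1, ANB1 and TIR4 do not overlap between the 2 sides, PAU24 and AAC3 do, and AAC3 orders the 3 couples the opposite way to DAN1.

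Of the 3 markers for the label "hypoxic" other than TIR1, whose separation is fixed by the choice of arrays, DAN1 had no overlap and PAU24 and AAC3 did. PAU24 (also called DAN3), of the seripauperin family of small wall proteins, was 6.70 and 7.01 on the WT/MA5 couple, 8.01 and 8.11 on the MA1/MA6 couple, and 9.52 and 10.26 on the MA3/MA7 couple. On the 10 it ran from 9.99 on WT replicate 2 to 11.53, with a median of 10.94. The medians differed 7.37-fold, and MA7 replicate 2 overlapped with 1 array of the 10.

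AAC3, the ADP/ATP carrier used in anaerobic cells, overlapped in another way. It was 9.40 and 9.27 on the WT/MA5 couple, 8.68 and 8.50 on the MA1/MA6 couple, and 8.04 and 8.08 on the MA3/MA7 couple. The lowest, median and highest values on the 10 were 9.23, 9.62 and 9.85, the lowest on MA2 replicate 1 with MA7 replicate 1 next at 9.24. The arrays lowest in DAN1 were thus the highest of the 6 in AAC3, within the range of the 10. The name hypoxic-low therefore did not hold for AAC3 on the WT/MA5 couple or for PAU24 on MA7 replicate 2, and the arrays are called here the 6 arrays with low TIR1.

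The PAU seripauperins overlapped for the most part. Of 24 genes 13 had a probe set of their own in the annotation, 10 of which are of the types that can bind several transcripts, so values of single PAU genes are uncertain. In all, 2 of the 13 had no overlap (PAU5 and PAU9), against 1.49% of all genes, and the median difference over the 13 was -0.89. That level was not shared evenly: the list's median, relative to each gene's 16-array median, was -0.85 and -0.87 on the WT/MA5 couple, -0.05 and -0.14 on the MA1/MA6 couple and -0.59 and -0.34 on the MA3/MA7 couple. PAU5 lay from 8.09 to 9.43 on the 6, against 9.70 to 10.76 on the 10, and PAU9 between 10.14 and 10.85 against 10.93 to 12.19. PAU23, at 12.79 to 13.22 on the 6 and 12.81 to 13.11 on the 10, showed no such difference.

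The list of low-oxygen isoforms, which also holds the heme synthesis gene HEM13, differed unevenly, with a median of -0.58. Of its 6 genes 2 had no overlap, ANB1 and HEM13, both lower, against 1.49% of all genes. Among the isoforms proper ANB1 was thus the only one. ANB1 encodes the anaerobic form of the translation factor eIF5A. It was 8.51 and 8.62 on the WT/MA5 couple, 8.97 and 9.29 on the MA1/MA6 couple, and 10.02 and 10.50 on the MA3/MA7 couple. The 10 arrays held it between 11.32 and 12.33, and the medians differed 7.18-fold. The order of the 6 was that of DAN1, which shares its chromosome, X, and also that of PAU24, which lies on chromosome II.

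HEM13 encodes coproporphyrinogen oxidase, an oxygen-requiring enzyme of heme synthesis that is induced when heme is short. It lay from 10.55 to 10.79 on the 6, against 11.06 to 11.55 on the 10, a 1.43-fold difference of the medians. COX5B (a cytochrome oxidase subunit) and CYC7 (a cytochrome c isoform) parted the 6 arrays among themselves. COX5B was 10.79 and 10.92 on the MA1/MA6 couple, inside the range of 10.54 to 11.10 on the 10, and 9.87 to 10.02 on the other 4. CYC7 was 11.11 and 11.49 on the same 2 arrays, above all of the 10 (9.90 to 10.54), and 9.31 and 9.64 on the WT/MA5 couple, below all of them. HMG2, a reductase of sterol synthesis, differed by -0.07 (log2) between the medians and overlapped.

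The aerobic counterparts differed less, with a list median of 0.08, and none of the 5 was free of overlap. HYP2, the aerobic eIF5A, was 13.94 to 14.06 on the 6 and 13.90 to 14.09 on the 10. It is a close paralog of ANB1, and binding of one transcript to the probes of the other cannot be told from these values. PET9, the main ADP/ATP carrier, had medians of 13.72 and 13.64, COX5A of 12.57 and 12.37, and HMG1 of 12.61 and 12.58. CYC1, the aerobic cytochrome c, was higher than all of the 10 (12.28 to 12.54) on 4 of the 6 arrays, at 12.95 and 13.01 on the MA1/MA6 couple and at 13.17 and 13.35 on the MA3/MA7 couple. It also lies on chromosome X. On the WT/MA5 couple it was 12.44 and 12.47, like the 10.

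**Figure D3:**
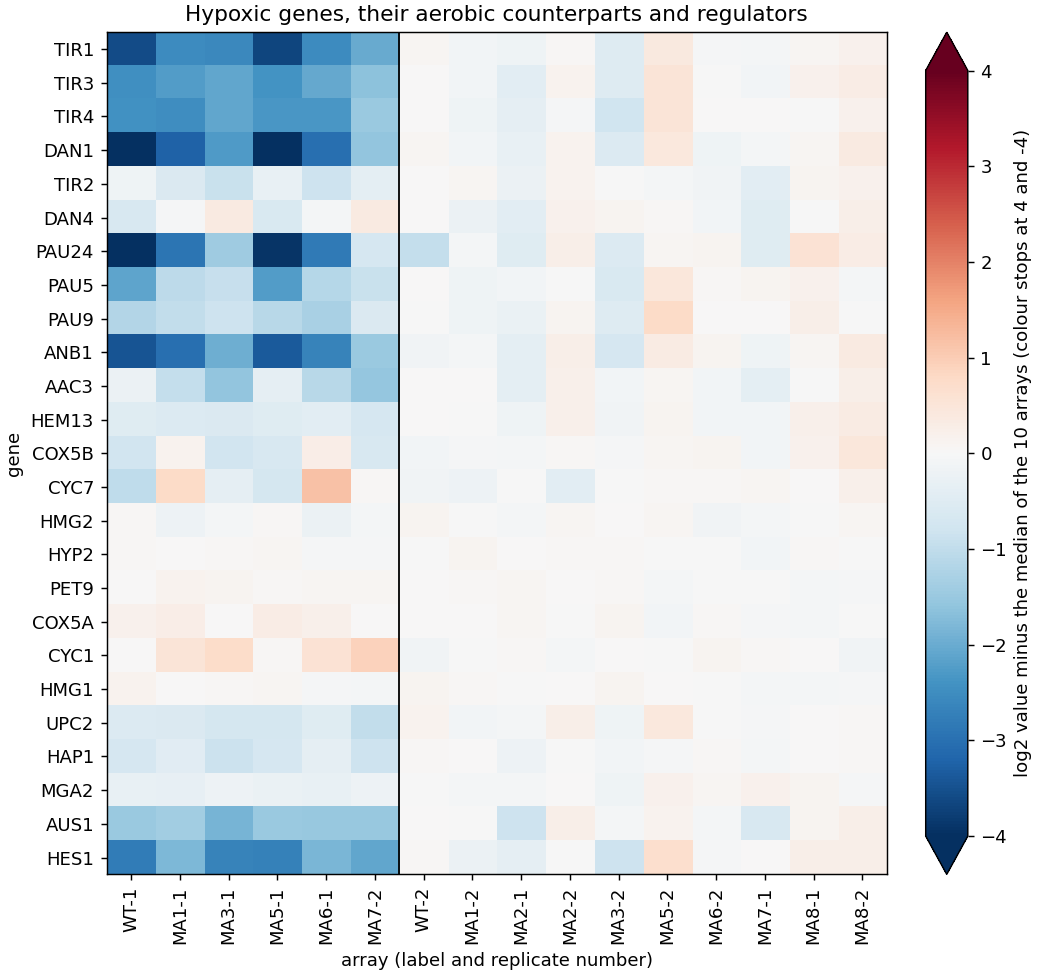
Colour gives the log2 value on each array minus the median of the 10 arrays, for hypoxic genes, aerobic counterparts, regulators and sterol genes. Left of the line, TIR1, TIR3, TIR4, DAN1, ANB1, AUS1 and HES1 are blue on all 6 arrays, while CYC7 and AAC3 differ among them. DAN1 on the WT/MA5 couple and PAU24 on WT replicate 1 lie beyond the colour scale.

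Among 15 regulators of oxygen, heme and sterol genes, 3 lay lower on all 6 arrays and none higher. Over all genes the shares were 1.49% lower and 0.734% higher. UPC2, the sterol-sensing activator, was from 8.62 to 9.11 on the 6, against 9.44 to 10.04 on the 10, a 1.54-fold difference of the medians. HAP1, the heme-responsive activator, was between 10.14 and 10.65 against 10.80 to 11.05, a 1.60-fold difference. MGA2, an activator of the fatty acid desaturase gene OLE1, was between 10.04 and 10.19 against 10.21 to 10.57. ROX1 overlapped, with medians of 11.15 and 11.22, and so did MOT3, a further repressor of hypoxic genes, with 10.16 and 9.83. HAP4, the member with the largest difference upward, overlapped too, with medians of 10.33 and 9.75. It was 9.57 and 9.62 on the WT/MA5 couple and 10.19 to 10.57 on the other arrays of the 6, against 9.42 to 10.16 on the 10. The list median over the 15 regulators was -0.10, and 12 of the 15 had a lower median on the 6.

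In sterol uptake and esterification 1 of 8 genes had no overlap, AUS1, and the list median was -0.28. A count of 1 in a list of 8 is too small to set against the 1.49% over all genes. AUS1, the transporter that imports sterol in anaerobic cells, had 9.30, 9.66 and 9.79 as its lowest, median and highest value on the 6 and 10.34, 11.18 and 11.41 on the 10, a 2.85-fold difference of the medians. Within the 10, MA2 replicate 1 (10.34) and MA7 replicate 1 (10.54) stood between the 6 and the remaining 8. Outside that list, HES1, which encodes an oxysterol-binding protein homolog, was 6.02 and 6.11 on the WT/MA5 couple, 7.02 and 6.98 on the MA1/MA6 couple, and 6.14 and 6.75 on the MA3/MA7 couple, against 7.99 to 9.50 on the 10. Its medians differed 5.19-fold.

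In ergosterol synthesis the differences were small. Of 25 genes 3 had no overlap, all lower, against 1.49% of all genes. The medians were lower by 0.19 for ERG4, 0.13 for NCP1 and 0.07 for ERG3 on the log2 scale. The gaps behind that count were narrow, at 0.04, 0.01 and 0.02 in the same order. ERG4 and ERG3 encode enzymes of the last steps, and NCP1 the reductase that supplies electrons to the P450 of the pathway. The list median was -0.02, equal to that of all genes. Of 12 oxygen-using and desaturation enzymes 2 had no overlap, 1 lower and 1 higher, with a list median of -0.04. These counts are too small to set against the 1.49% lower and 0.734% higher over all genes. FRD1, a soluble fumarate reductase used under anaerobiosis, was lower on all 6 (11.19 to 11.49 against 11.61 to 11.80). SOD2, the mitochondrial superoxide dismutase, was higher on all 6 (12.30 to 12.40 against 12.03 to 12.16).

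Further genes among the 15 widest gaps were not in the hypoxic lists. PBI1, whose role is not given here, was from 7.81 to 8.37 on the 6, against 9.37 to 10.46 on the 10, a 3.51-fold difference of the medians. YML083C (2.59-fold), YHK8 (2.05-fold) and FHN1 (1.89-fold, a relative of the eisosome protein Nce102) were each lower on all 6 with gaps of 0.50, 0.48 and 0.35. YML083C was dim, at 5.76 to 6.43 on the 6.

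As with DAN1, the size of the difference varied between couples for RSB1 and APE1. RSB1, a long-chain base transporter of the plasma membrane, was 8.17 and 8.43 on the WT/MA5 couple and between 9.50 and 10.47 on the other 4, against 10.77 to 11.22 on the 10. APE1, a vacuolar aminopeptidase, was 9.95 and 9.92 on the MA1/MA6 couple and between 11.42 and 11.62 on the other 4, against 11.91 to 12.19.

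Of 29 genes of iron and metal uptake 3 had no overlap, all lower, against 1.49% of all genes, with a list median of -0.15. The list as a whole was not lower on every array: its median, relative to each gene's 16-array median, was -0.35 to -0.21 on the WT/MA5 and MA1/MA6 couples and 0.04 and 0.10 on the MA3/MA7 couple. FIT1, a wall mannoprotein that retains iron carriers, was 8.62, 8.64 and 8.77 on MA1 replicate 1, MA6 replicate 1 and MA5 replicate 1 and 10.14, 10.55 and 10.66 on the other 3, against 10.77 to 11.54 on the 10. Its median difference of -1.81 became -1.13 without any 1 of the 3 lowest arrays. FIT3 and the iron permease gene FTR1 differed by -0.52 and -0.19 between the medians. The gaps behind the count of 3 were narrow, at 0.11 for FIT1, 0.004 for FIT3 and 0.04 for FTR1. MEP2, the high-affinity ammonium permease, was between 9.39 and 9.99 against 10.21 to 10.56, and PRM4, a pheromone-regulated gene, between 8.61 and 9.12 against 9.30 to 9.69. Each was the only gene without overlap in its list, of 21 nitrogen-repressed (median -0.09) and 22 pheromone response genes (median -0.13), and 1 gene in lists of this size is too few to set against the 1.49% over all genes.

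The genes higher on all 6 arrays were fewer and their differences smaller. MNN1, a mannosyltransferase that finishes the glycans of wall proteins, was from 10.75 to 11.12 on the 6, against 9.82 to 10.32 on the 10, a 1.72-fold difference of the medians. SCW10, a wall protein related to glucanases, was between 12.61 and 12.79 against 12.06 to 12.34. CSI2 was between 10.49 and 10.88 against 9.83 to 10.37, and CLN2, a G1 cyclin, between 10.96 and 11.25 against 10.21 to 10.86. In both CSI2 and CLN2 the highest of the 10 were MA7 replicate 1 and MA2 replicate 1, next to the 6.

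**Figure D4:**
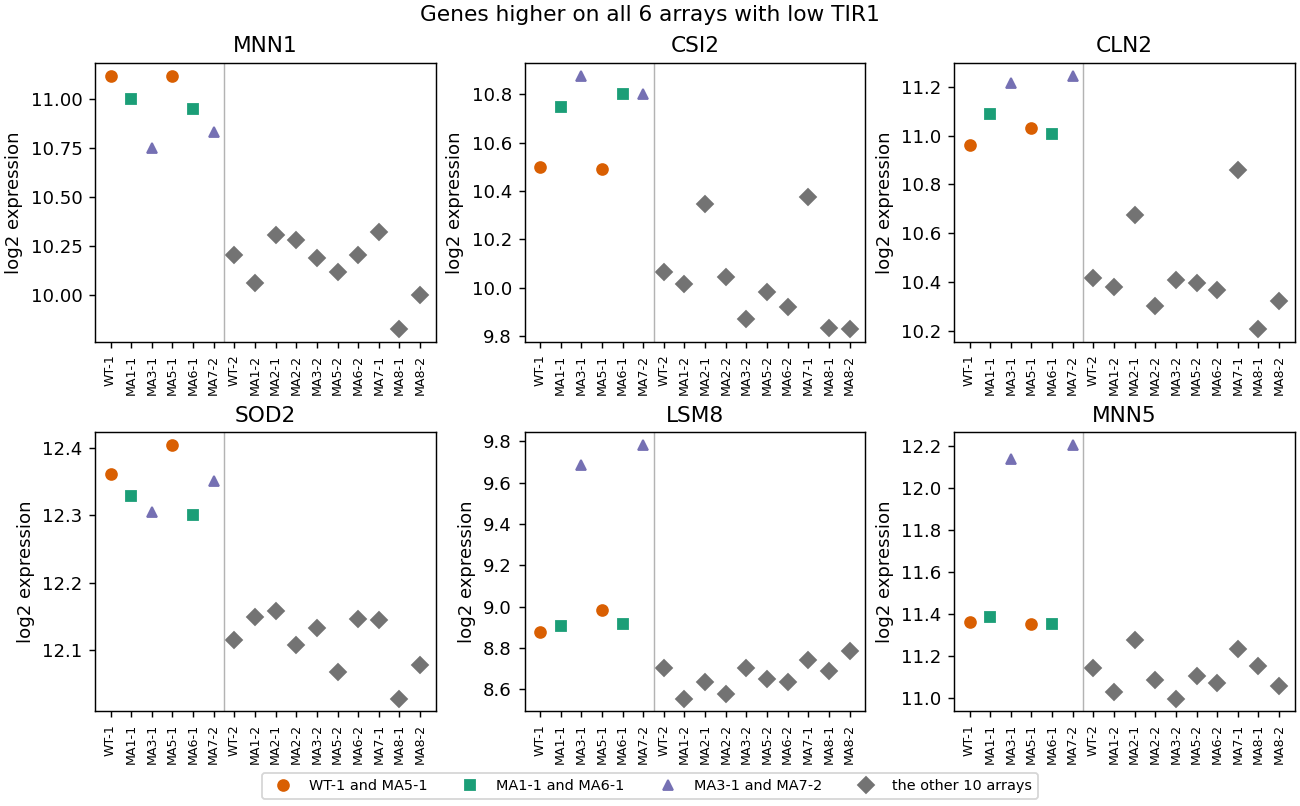
Log2 expression of 6 genes that were higher on all 6 arrays, with symbols as in the plot of hypoxic genes by array. MNN1, CSI2, CLN2 and SOD2 lie above the 10 on each couple, as do LSM8 and MNN5, genes of chromosome X that reach 9.78 and 12.20 on the MA3/MA7 couple.

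Of the 316 genes of chromosome X 7 (2.22%) were higher on all 6, against 0.734% of all genes, and 4 (1.27%) lower, against 1.49%. LSM8, of a small nuclear RNA-binding ring, was 9.68 and 9.78 on the MA3/MA7 couple and between 8.88 and 8.98 on the other 4, against 8.56 to 8.79 on the 10. MNN5, another mannosyltransferase, was 12.14 and 12.20 on those arrays and 11.35 to 11.38 on the other 4, against 11.00 to 11.28. Without chromosome X, 77 lower and 33 higher genes were left. Among the higher genes of other chromosomes, DUN1 (a checkpoint kinase), CYS3 (cystathionine gamma-lyase) and ERP3 differed by 0.22, 0.16 and 0.16 between the medians. HXT2, a glucose transporter, differed by 0.34 and COX4, a cytochrome oxidase subunit, by 0.30.

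In other pathways few or no genes were free of overlap, as among all genes (1.49% lower and 0.734% higher), so that a count of 0 or 1 in these lists says nothing about them. None of the measured members was free of overlap among the 22 cell wall integrity and PIR genes, the 27 general stress genes, the 21 heat shock genes, the 63 ribosome biogenesis genes, the 17 glycolytic genes, the 13 genes of the tricarboxylic acid cycle or the 8 CCT subunits. The same held for 16 trehalose and glycogen, 31 cytosolic ribosomal protein, 16 phosphate and 12 pyrimidine synthesis genes. The medians of these lists lay between -0.07 and 0.08, but the couples differed in some of them. Relative to each gene's 16-array median, general stress was -0.59 and -0.51 on the WT/MA5 couple and 0.39 and 0.54 on the MA1/MA6 couple. Cell wall integrity was -0.32 and -0.26 on the former and 0.49 and 0.53 on the latter. Ribosome biogenesis was 0.40 and 0.36 against -0.13 and -0.24. In these lists the MA3/MA7 couple lay between the others. Of 36 respiratory chain and ATP synthase genes COX4 alone had no overlap (list median 0.07), and so had MRPL22 of 64 mitochondrial ribosomal protein genes (lower, list median -0.06), HXT2 of 21 glucose-repressed genes (list median near 0), HEM13 of 9 heme genes (-0.04) and APE1 of 8 vacuolar proteases (-0.02). By the same measure the glucose-repressed list was 0.51 and 0.55 on the MA1/MA6 couple and from -0.24 to -0.13 on the other arrays of the 6. Of 37 amino acid synthesis genes HIS4 was lower and MET3, a gene of chromosome X, higher on all 6, with a list median of -0.08. All 11 pleiotropic drug resistance genes had a lower median on the 6 (list median -0.35), as did 3114 of 5449 genes, and RSB1 was the only one without overlap. The lower level was not shared by all 6: relative to each gene's 16-array median, the list's median was -0.81 and -0.64 on the WT/MA5 couple and -0.30 and -0.38 on the MA3/MA7 couple, but 0.06 and 0.02 on the MA1/MA6 couple.

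Outside the shared genes the 6 arrays were not alike. In the 3 couples each array lay nearest to 1 other of the 6 by the correlation of deviations from the gene means over 5449 genes. The correlation was 0.94 for the WT/MA5 couple, 0.94 for the MA1/MA6 couple and 0.85 for the MA3/MA7 couple. Between arrays of different couples it ran from -0.51 to -0.03. These values describe the arrays, which share 1 normalization, and deviations from a common mean push such correlations below 0.

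**Figure D5:**
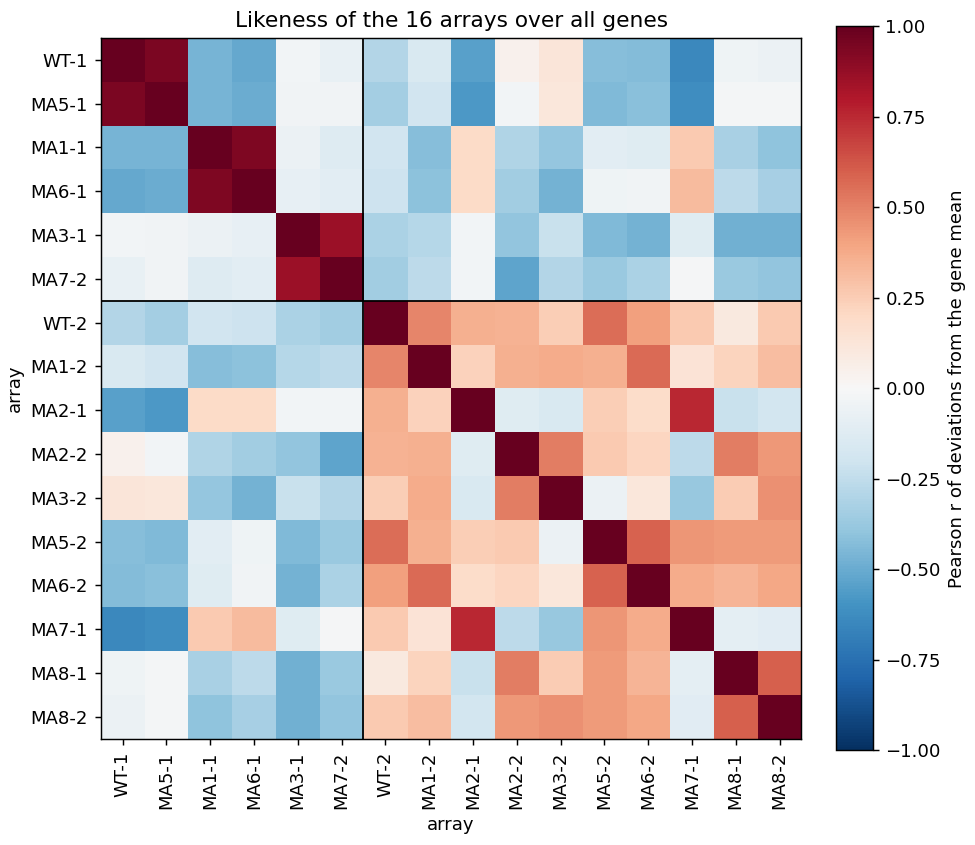
Pearson correlation of deviations from the gene mean over 5449 genes for each combination of the 16 arrays, with the 6 arrays first, ordered by couple. Each couple forms a dark red block (0.94, 0.94 and 0.85), and the 12 values between couples run from -0.51 to -0.03.

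Each couple alone differed from the 10 in many more genes than all 3 together. Both arrays of the couple lay below all 10 for 1327 genes in the WT/MA5 couple, for 1046 in the MA1/MA6 couple and for 1159 in the MA3/MA7 couple, against 81 shared by all. Above all 10 the numbers were 1570, 1207 and 628, against 40. Among the 81 lower genes the lowest couple was WT/MA5 in 40, MA3/MA7 in 30 and MA1/MA6 in 11. A pair of arrays exceeds the 10 more easily than 6 arrays do, by construction. The label checks also parted the couples: URA3 was 8.07 and 8.12 on the WT/MA5 couple alone of the 6, with CCT6 at 11.94 on both. CCT2 was 10.64 and 10.47 on the MA1/MA6 couple alone of all 16, and CCT3, a gene of chromosome X, was 13.03 and 13.21 on the MA3/MA7 couple.

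Since the other array of each of the 6 labels lies among the 10, the 6 arrays can be set against arrays of the same label. A shared label does not ensure the same strain, as the labels are uncertain. URA3 was 8.07 on WT replicate 1 but 11.95 on WT replicate 2. CCT2 was low on MA1 replicate 1 (10.64), whereas CCT3 was low on MA1 replicate 2 (10.16). The value on the array of the 6 minus that on its partner ran from -4.06 to -1.94 (log2) for TIR1 and from -5.63 to -1.51 for DAN1. It ran from -3.68 to -1.29 for ANB1 and from -1.80 to -0.89 for AUS1. The sign in these 4 genes follows from the lack of overlap, since each partner is among the 10. PAU24 (-4.02 to -0.21) and AAC3 (-1.47 to -0.23), which overlapped between the 6 and the 10, were also negative in all 6 labels, as were 7.27% of all genes, while 4.72% were positive in all 6. Most signs of PAU24 and AAC3 were fixed too. For PAU24 5 of the 6 arrays, and for AAC3 4, lay below all of the 10.

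The labels were also tested over all genes, without the split. A moderated F test over the 8 labels (limma, Benjamini-Hochberg over 5449 genes) called 0% of the genes at an adjusted p under 0.05, with 144 at an unadjusted p under 0.05. The unmoderated F test also called 0, with 208 unadjusted. This says nothing about the 121 genes: with 1 array of 6 labels on either side, their spread within labels is large by construction. The F test sets the differences between labels against the spread between arrays of 1 label, which for TIR1 was an SD of 1.76 (log2). Whether that spread is technical or lies between cultures or strains was not tested. URA3 opposed the label on 6 of the 16 arrays, so a call of 0 does not show that the strains were alike.

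By replicate number, 5 of the 6 arrays and 3 of the 10 were numbered 1. Replicate 1 against replicate 2 within labels (limma, Benjamini-Hochberg) called 1 gene higher (0.0184%) and 0% lower, with 332 at an unadjusted p under 0.05. None of the 121 genes was called, and 33 of them had an unadjusted p under 0.05. With 5 of the 6 arrays numbered 1, the contrast in these genes is partly set by the split. Neither count therefore bears on the replicate number. The called gene was YDR042C, which overlaps between the 6 and the 10. It was 6.91 ± 0.33 in replicate 1 and 6.23 ± 0.28 in replicate 2 (SD, n = 8 each), higher in 8 of 8 labels by 0.35 to 0.93, a difference of 0.68 ± 0.06 (SE, limma adjusted p = 0.00695). It is dim, under the mean of 7 that one alternative asked for, and the call ended with quantile normalization, where no gene was called (smallest adjusted p = 0.748), and without the strain block (0.655).

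Within the 10 arrays, those nearest to the 6 differed by gene. MA3 replicate 2 was the lowest of the 10 in 21 of the 81 lower genes, among them TIR1 (12.35), DAN1 (10.98) and ANB1 (11.32). MA2 replicate 1 was the lowest in 13. Among the 40 higher genes, MA7 replicate 1 was the highest of the 10 in 9 and MA2 replicate 1 in 8. These arrays did not alone set the edge of the 10 on which the counts of 81 and 40 rest. MA8 replicate 2, for example, was the lowest of the 10 in 9 lower genes and the highest in 7 higher ones.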

How the data were processed

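Expression was measured on 16 arrays in 8 labelled strains. The authors deposited 1 log2 value for each probe set and array, made with RMA and Partek per the submitters' processing notes, with versions and genome build not given in the sources used here. RMA corrects background, normalizes between arrays and summarizes probes, so values are relative, and low values are compressed. No scanner files were used here, and the number of arrays limits the precision.

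The platform annotation paired 5498 of 10928 probe sets with exactly 1 S. cerevisiae gene, giving 5449 genes (names and gene order from the R64 gene table). A gene with several probe sets, of which there were 47, was represented by the one with the highest mean. Arrays were split by TIR1, and a gene was counted when all 6 values lay below, or above, all 10. Differences are between medians, and folds are computed from them. Label tests used limma 3.58.1 in R 4.3.3 (lmFit, eBayes), tested on simulated data. The other steps used Python 3.11.15, pandas 2.3.3 and numpy 2.4.6.

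Named genes were the 4 markers, the DAN, TIR, isoform and counterpart genes, up to 3 genes without overlap from each other list (by median difference), the 15 and 10 widest gaps, and the label checks. The arrays, the 29 lists and the rule were chosen with earlier results of these data known. Other genes were named after their values were seen. Alternatives are given below.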

Additional observations from a re-analysis of the deposited data

Results flagged for a closer look

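Among the named genes, 3 values stood far from the others on their side of the split, where chance gives about 1 in 20 groups and 118 groups were examined. AUS1 was 9.30 on MA3 replicate 1, the lowest of the 6, with the next at 9.65. COX5B was 11.10 on MA8 replicate 2, the highest of the 10, with the next at 10.82. ERG4 was 13.38 on MA8 replicate 1, the highest of the 10, with the next at 13.29.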

How the results depend on the processing

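The count of 81 lower and 40 higher genes was 82 and 45 after quantile normalization, and fell to 17 and 2 when a gap of at least 0.2 was required, so most of the shared genes rest on narrow gaps. Leaving out 1 array gave 82 to 103 lower and 41 to 56 higher genes. Leaving out a couple, chosen after seeing the data, gave 314 and 174 (WT replicate 1 and MA5 replicate 1), 447 and 246 (MA1 replicate 1 and MA6 replicate 1) and 130 and 136 (MA3 replicate 1 and MA7 replicate 2); fewer arrays make a lack of overlap more frequent by construction. The F test over labels called 0 genes with quantile normalization, all probe sets, a mean of at least 7, a variance trend or no moderation, 0 to 0 without single arrays and 0 with the replicate block (154 at an unadjusted p under 0.05, 144 without the block). Without the 6 arrays whose URA3 opposes the label, also chosen afterwards, it called 1, URA3 itself (adjusted p = 0.0211), whose values chose the arrays left out. The replicate test called 1 to 1 gene without single arrays, and 0 with quantile normalization, with a mean of at least 7 or without the strain block; the cause was not tested. Fisher's exact test of the replicate number against the split (p = 0.119, two-sided, and 0.0256 to 0.119 without single arrays, lowest without MA7 replicate 2) is given for completeness only: TIR1 chose the split and the 16 arrays are not independent, so nothing is drawn from it. Among named genes without overlap, the median difference of FIT1 moved from -1.81 to -1.13 without MA1 replicate 1, MA5 replicate 1 or MA6 replicate 1. The means of the 6 and the 10 differed by over 1.5 times the medians in APE1 (-1.06 against -0.63), LSM8 (0.52 against 0.28) and MNN5 (0.52 against 0.28).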

Other observations

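Large differences were not always shared by the 6 arrays. Of 37 genes whose median was lower by at least 1 (log2) on the 6 (0.679% of all genes), 17 had no overlap with the 10, and of 9 genes with a median higher by at least 1 (0.165%), none did. The genes named here were chosen after their values were seen. PHO84, the high-affinity phosphate transporter, had a median difference of -1.70 but ran from 5.80 to 11.32 on the 6, with 4 of them below all of the 10. HUG1, a DNA damage-induced gene, lay below all of the 10 on 5 of the 6 arrays, with a median difference of -2.21. LSO1 differed by -2.61 with 4 of 6 below, and GAP1, the general amino acid permease gene, by -1.08 with 4 of 6. Among the 9 higher genes were the glucose transporters HXT4 (1.35) and HXT7 (1.23) and the activator ADR1 (1.30), each overlapping with the 10.

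SET4, a gene of chromosome X that lay outside the naming rule, was lower on all 6 arrays although its values there were dim, at 4.80 to 6.62 against 6.68 to 8.05. Of the 3683 probe sets not listed in the annotation, 1 was lower on all 6 (0.0272%). It ran from 10.98 to 11.83 on the 6, against 11.99 to 12.14 on the 10, and has no gene name here. Genes without overlap were next to each other on a chromosome in 1 case among the 81 lower genes (GAT1 and PAU5) and in 2 among the 40 higher ones (SWE1 with MNN5 and REC107 with LSM8, all on chromosome X).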
